A study of Mus musculus with 12 samples.

Results

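The regions described here were places in the genome where a peak of 5-methylcytosine (5mC) and a peak of 5-hydroxymethylcytosine (5hmC) overlapped by at least 1 bp, where 5mC was lower in neurons than in proliferative progenitors (PP) and where 5hmC was not higher. They were thus selected on the levels of both marks in PP and neurons. The 5mC level had to be at least 1.5-fold lower, a difference of -0.585 or less on the log2 scale, and the 5hmC difference had to be 0 or less. Of 6727 pairs of overlapping peaks, 270 met both conditions. They joined 270 of 55085 5mC peaks with 270 of 47478 5hmC peaks and lay nearest to 263 genes. The study mapped both marks in the cortex of E14.5 mouse embryos that carried the Btg2-RFP and Tubb3-GFP reporters. PP were sorted as cells without either reporter, differentiative progenitors (DP) as RFP+/GFP- cells and neurons as GFP+ cells irrespective of RFP. All embryos carried both reporters, and no treatment was compared. DNA of the 3 cell types was barcoded, mixed and immunoprecipitated together, with an untreated input for each of the 6 immunoprecipitated samples.

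5mC is the methyl mark of vertebrate DNA, found mostly where C is followed by G. TET enzymes oxidise it to 5hmC, which can be an intermediate on the way back to plain cytosine, and which is abundant in the DNA of neurons. 5mC can also be lost without a TET enzyme, when the mark is not copied after replication. MeDIP and hMeDIP pull down fragments with antibodies against 5mC and 5hmC. They report the enrichment of a fragment and not the share of molecules that carry the mark.

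Of the 270 pairs, 2 had a 5mC peak that touched the promoter window of a RefSeq gene, which runs from 250 bases before to 50 bases after the start. This was 0.741% of the pairs, against 56 of all 6727 pairs (0.832%). These 2 windows are shown because they hold a stretch covered by both peaks, written in capitals, from the plus strand of GRCm38.p6 at chr16:32400256-32400555 for Tm4sf19 and chr6:4654304-4654603 for Gm38761.
Tm4sf19: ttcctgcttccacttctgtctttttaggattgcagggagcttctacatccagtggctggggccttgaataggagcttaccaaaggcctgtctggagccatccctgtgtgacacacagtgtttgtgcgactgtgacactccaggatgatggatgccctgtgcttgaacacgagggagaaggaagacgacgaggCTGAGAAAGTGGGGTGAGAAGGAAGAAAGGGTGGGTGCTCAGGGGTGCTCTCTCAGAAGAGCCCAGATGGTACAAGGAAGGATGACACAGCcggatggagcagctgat
Gm38761: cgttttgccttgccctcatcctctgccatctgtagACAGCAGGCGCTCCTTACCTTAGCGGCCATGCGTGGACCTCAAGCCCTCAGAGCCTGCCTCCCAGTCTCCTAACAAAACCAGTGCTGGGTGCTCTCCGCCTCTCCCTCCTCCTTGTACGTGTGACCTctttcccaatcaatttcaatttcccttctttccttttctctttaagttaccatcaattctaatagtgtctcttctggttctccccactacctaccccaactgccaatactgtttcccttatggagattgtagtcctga
The stretch in capitals in the Tm4sf19 window, 91 bases long, held 0 of the 5 CpG dinucleotides of the window. In the Gm38761 window, 5 of 6 CpG lay in the 127 capitals. The median promoter window held 7 CpG. The E-box CAGATG, searched on both strands, was found at 1 place in each window and in 17.2% of 32851 promoter windows. CAGCTG was found at 1 place in the Tm4sf19 window and in 16.3% of all windows. Both are also counted under CANNTG, which was found at 2 places in each window and in 72.3% of all. Not found in either window were the homeodomain motif TAATTA (5.29% of all windows), the SOX motif ATTGTT (10.7%), the AP-1 motif TGANTCA (7.81%), the octamer ATGCAAAT (1.74%), the E-box CACGTG (7.15%) and the NFI palindrome (0.0365%). The 5mC peak at Tm4sf19, a gene of the transmembrane 4 L6 family, had a level of 4.41, 4.04 and 3.39 in PP, DP and neurons, while its 5hmC peak stayed between 4.74 and 4.82. At the Gm38761 window, whose nearest gene in the deposited annotation was Casd1, 5mC was 4.64, 4.67 and 4.05 and 5hmC was 5.50, 5.12 and 5.10 in PP, DP and neurons.

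These levels are log2 means, 1 per cell type and mark, made by the authors from their replicates with DiffBind. The paper states that DiffBind was used to calculate normalised read values. On such a scale the lowest levels stand for few reads. The deposited tables hold no replicate values and no raw read counts. The exact depth behind a level is therefore unknown, and no difference below was set against the spread between replicates. All counts and medians are therefore descriptions, and a level carries no SD. Expression in the tables comes from the authors' earlier RNA sequencing of the same 3 cell types, so it describes those sorts and cannot check the cells used here for DNA. Values were available for 7 of 8 PP markers, 6 of 6 DP markers and 5 of 6 neuron markers, and each was highest in the cell type it marks. Among markers of other cells, those of pericytes and mesenchyme summed to an expression of 1778, 381 and 114 in PP, DP and neurons. In the same order, endothelial markers summed to 511, 360 and 102, microglial markers to 376, 230 and 82, and interneuron markers to 982, 3687 and 10781. Whether such cells were in the DNA samples and took part in the differences was not tested. The red cell markers were not among the genes of the tables.

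By construction 5mC was lower in neurons at every pair. A 1.5-fold lower 5mC level was found at 31.7% of all overlapping pairs and at 16.3% of all 5mC peaks, and a 5hmC level that was not higher at 33.4% of the pairs and at 56.1% of all 5hmC peaks. Among the 2131 pairs with lower 5mC, 12.7% were the 270 described here, and the other 1861 had higher 5hmC in neurons. The median 5mC level of the 270 pairs was 4.80, 4.53 and 3.78 in PP, DP and neurons. Their median difference between neurons and PP was -0.87, with quartiles of -1.30 and -0.71 and a lowest value of -4.78. The median 5hmC level was 5.16, 5.11 and 4.84 in PP, DP and neurons. The median 5hmC difference was -0.27, with quartiles of -0.47 and -0.12.

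**Figure D1:**
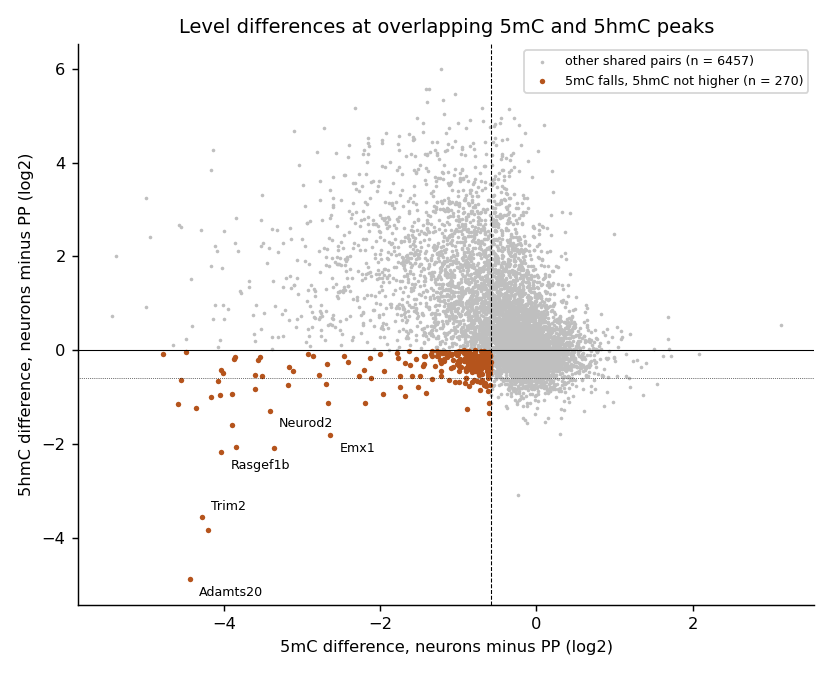
Difference of the mean level between neurons and PP in 5mC (x axis, log2) and 5hmC (y axis, log2) for 6727 overlapping pairs, with the 270 selected pairs in orange and 5 nearest genes named. The dashed line marks a 1.5-fold lower 5mC level and the dotted line a 1.5-fold lower 5hmC level. Most selected pairs lie close to both limits of the selection, and those near Trim2, Adamts20 and D930049A15Rik reach differences below -3 in both marks.

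The pairs with lower 5mC and higher 5hmC differed from the 270 most in their 5hmC level in PP. It had a median of 3.88, 4.46 and 5.30 in PP, DP and neurons there. In the 270 pairs 5hmC was thus already 5.16 in PP, as a median, near the level that the other pairs had in neurons. For 5mC the other pairs had medians of 5.17, 4.95 and 3.98. The PP and neuron levels were used to select the pairs, so these values describe the selection and were not tested.

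**Figure D2:**
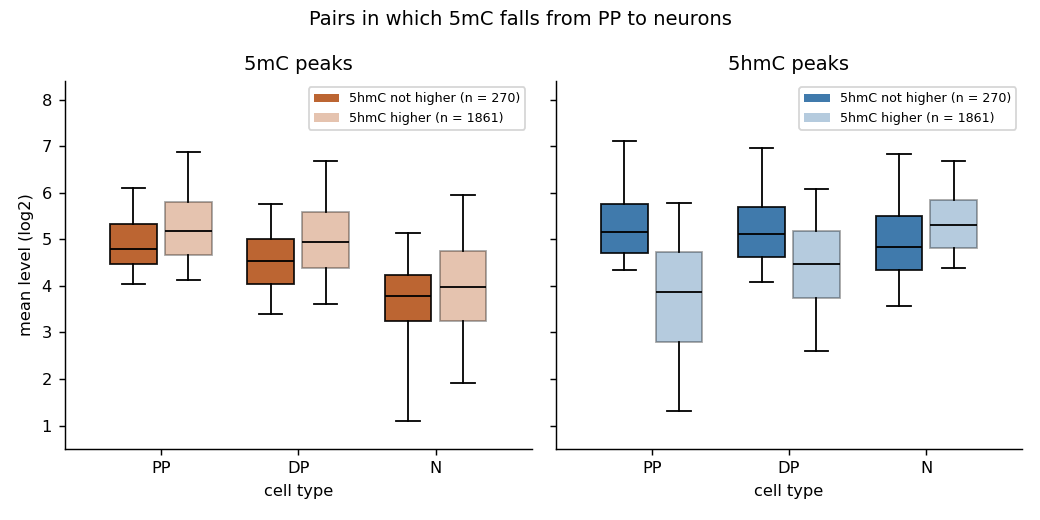
Mean levels (log2) of 5mC and 5hmC peaks in PP, DP and neurons (N), for the 270 pairs with 5hmC not higher in neurons (dark) and the 1861 with 5hmC higher (light). Boxes give the median and quartiles over pairs and whiskers the 5th and 95th percentiles; the dark 5hmC boxes start at a median of 5.16 in PP and the light ones at 3.88.

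Many 5hmC differences lay close to the limit. The 5hmC difference lay within 0.1 below 0 at 53 of the 270 pairs, and at 45 further pairs with lower 5mC it lay within 0.1 above 0. The pair just inside, near 3110056O03Rik, had a 5hmC difference of -0.00024, with a level of 4.68 in both PP and neurons. The pair just outside, near Pak3, had 0.00092. Its 5hmC was -0.051 in PP and -0.050 in neurons, the lowest neuron level of any 5hmC peak, so this difference carries little information. For 5mC the pair near Etfa, which encodes a mitochondrial electron carrier, lay just inside at -0.59 and the pair near Tcof1, a factor of ribosome production, just outside at -0.58. When the median difference of all peaks of each mark, -0.17 for 5mC and -0.08 for 5hmC, was first taken away, 144 of the 270 pairs were left. In 29 pairs both peaks had a mean level at or above the median of their table. This share was not counted among the other overlapping pairs.

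In 51 pairs both marks were at least 1.5-fold lower in neurons. That is 51 of 270, against 4.8% of all overlapping pairs and 14.4% of the pairs in which 5hmC was not higher. Median 5mC in these 51 pairs was 4.85, 4.19 and 3.14 in PP, DP and neurons, and median 5hmC was 4.78, 4.69 and 3.98. The remaining 219 pairs had a median 5hmC difference of only -0.21.

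DP levels were not part of the selection, although the difference to PP shares the PP level with it. 5mC was lower in DP than in PP at 212 of the 270 pairs (78.5%), against 56.2% of all overlapping pairs, with a median difference of -0.30. The pairs with higher 5hmC gave 77.4% and -0.23. Between DP and neurons the median difference was -0.70, and in 201 pairs (74.4%) the drop was larger in this second step than between PP and DP, against 70.2% of all overlapping pairs and 83.4% of the pairs with higher 5hmC. Where both marks were 1.5-fold lower, 48 of 51 pairs had lower 5mC in DP than in PP, with a median of -0.70. In the other 219 pairs these were 164 (74.9%) and -0.23. The 51 pairs also had a larger median 5mC difference between neurons and PP, -1.51 against -0.83. Pairs with a like 5mC difference were not compared.

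5hmC was higher in DP than in PP at 92 of the 270 pairs (34.1%, exact Clopper-Pearson 95% interval 28.4% to 40.1% for counting error over pairs). Among all pairs with 5hmC not higher in neurons this was 31.2%, so the share among the 270 was close to the background. At 10 of the 270 pairs (3.70%) 5hmC in DP was at least 1.5-fold over both PP and neurons, against 1.34% of the pairs with 5hmC not higher in neurons, which include these 10. An example was the pair 44493 bp downstream of Sec61b, a subunit of the channel that carries proteins into the endoplasmic reticulum. Its 5hmC was 3.97, 5.35 and 3.94 in PP, DP and neurons, and its 5mC was 4.60, 3.94 and 0.11. Thus a pair counted as having no 5hmC gain over the whole lineage had its highest 5hmC in the intermediate cell type. Ndufs4, a subunit of respiratory complex I, was nearest to 2 of the pairs. At the first, 5hmC was 4.28, 5.25 and 3.04 in PP, DP and neurons, and 5mC was 5.46, 4.63 and 1.10. At the second, 5hmC was 4.13, 4.69 and 3.39 and 5mC was 6.34, 4.89 and 3.15, the same order of the cell types in both marks.

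Among the 270 pairs, both features were more frequent where 5mC was much lower. Of 29 pairs with 5mC at least 8-fold lower in neurons, 17 (58.6%) had 5hmC at least 1.5-fold lower and 18 (62.1%) had their highest 5hmC in DP. Of 170 pairs with 5mC less than 2-fold lower, these were 21 (12.4%) and 48 (28.2%). The selection used the levels of both marks in PP and neurons, so these shares describe the selected pairs. Shares at a like 5mC difference were not counted among the other overlapping pairs. Among the 29 were pairs whose neuron level was near the lowest in the tables. A 5mC level under 1 in neurons was found at 13 of the 270 pairs, against 48 of all 6727 pairs. Of the 13, 4 were at 0.11, the lowest neuron level of any 5mC peak, which 38 of all 55085 5mC peaks had. How far a low level moved these shares was not tested.

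**Figure D3:**
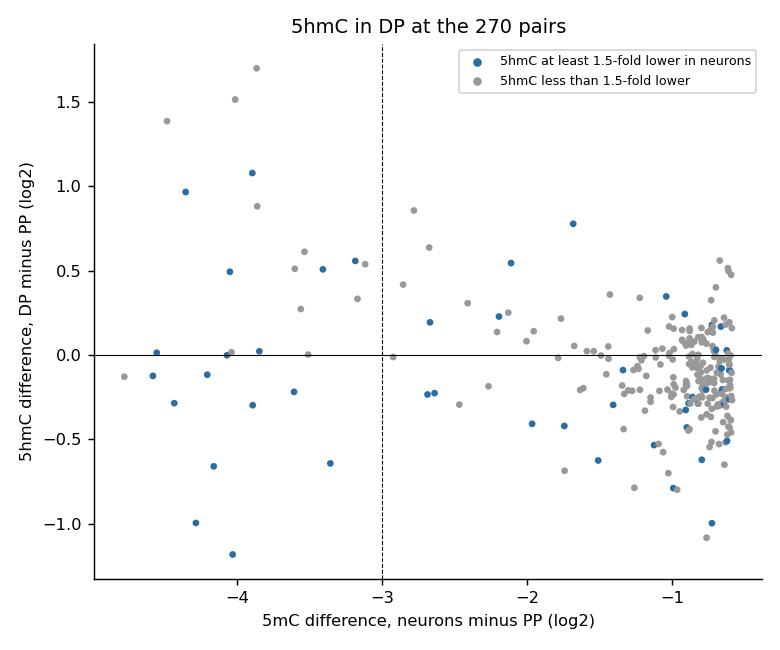
Difference of 5mC between neurons and PP (x axis, log2) against the difference of 5hmC between DP and PP (y axis, log2) for the 270 pairs, in blue where 5hmC was at least 1.5-fold lower in neurons. Left of the dashed line, at an 8-fold lower 5mC level, 18 of 29 pairs lie above 0, and the points spread to both sides.

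The 10 pairs with the lowest 5mC in neurons relative to PP held different 5hmC patterns. The largest difference was inside Slc25a13, a mitochondrial aspartate-glutamate carrier, at chr6:6195087-6195228 (mm10). There 5mC was 4.89, 3.52 and 0.11 in PP, DP and neurons, while 5hmC stayed at 4.83, 4.70 and 4.75. 5hmC was thus almost the same in all 3 cell types, whereas 5mC reached the lowest level of the table. Inside Syt1, the calcium sensor of synaptic vesicle release, 5mC was 5.05, 4.42 and 0.47 and 5hmC was 5.12, 4.99 and 3.97. The peaks at Syt1 shared only 1 bp. Downstream of Rnf144a, a ubiquitin ligase, 5mC was 5.90, 4.83 and 1.34 and 5hmC was 5.41, 5.42 and 4.77. Xkr7, of the XK family, had 5mC of 4.91, 3.28 and 0.84 within the gene, with 5hmC of 5.71, 5.71 and 5.05. In these pairs 5hmC was equal or nearly equal in PP and DP, and 5mC was lower already in DP. Pdgfra, a growth factor receptor that marks oligodendrocyte precursors, had its pair 94959 bp downstream of the start. 5mC was 4.75, 2.53 and 0.59 there and 5hmC was 5.09, 4.43 and 4.10.

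At 3 of these 10 pairs 5hmC was lower in neurons by about as much as 5mC. Downstream of Adamts20, a secreted metalloprotease, 5hmC was 4.84, 4.55 and -0.05 in PP, DP and neurons, the lowest neuron level of any 5hmC peak, and 5mC was 4.55, 3.75 and 0.11. The pair inside Trim2, a ubiquitin ligase of neurons, had 5hmC of 4.82, 3.82 and 1.25 and 5mC of 4.76, 2.46 and 0.47. Near D930049A15Rik 5hmC was 4.69, 4.57 and 0.85 and 5mC was 5.41, 4.19 and 1.20. With differences of -4.89, -3.57 and -3.84, these were the lowest 5hmC differences of the 270 pairs. The next in order were Rasgef1b, CN725425, A730090N16Rik, Emx1, Klhl29, Podxl and Neurod2, from -2.18 to -1.30.

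**Figure D4:**
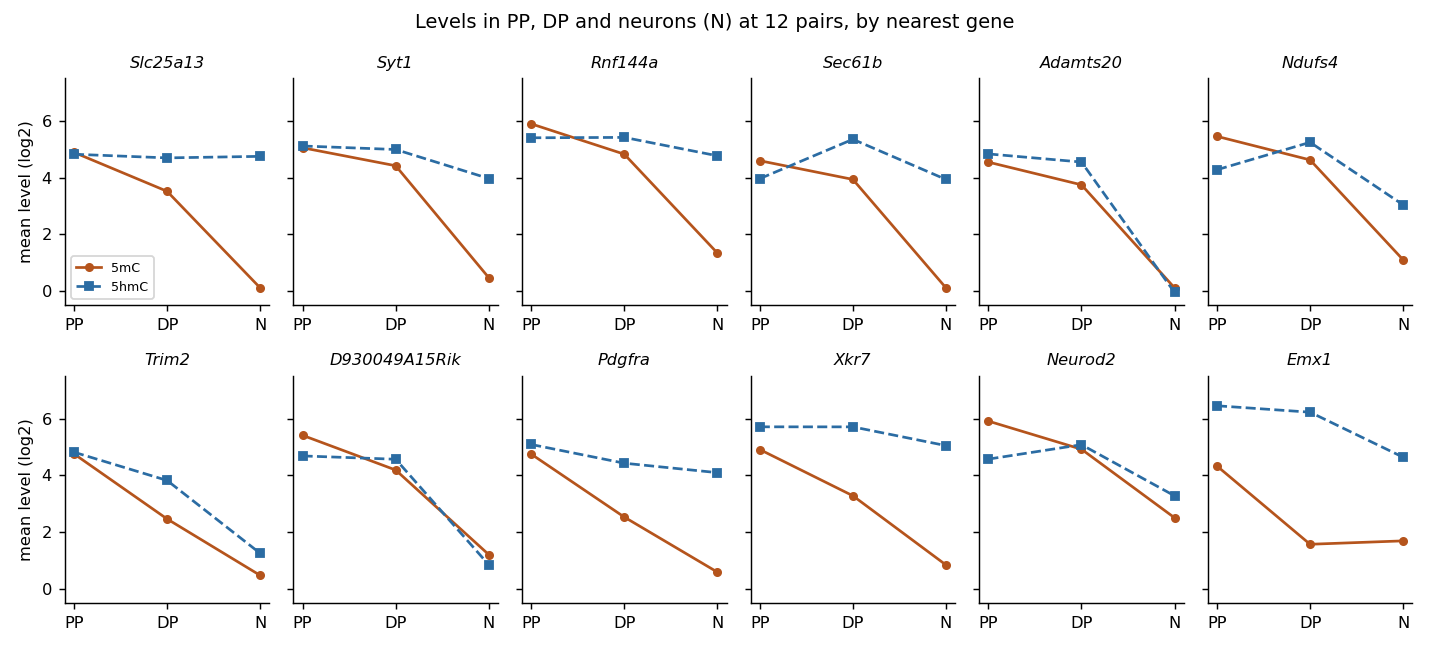
Mean level (log2) of 5mC (solid, circles) and 5hmC (dashed, squares) in PP, DP and neurons (N) at the 10 pairs with the largest 5mC difference and at Neurod2 and Emx1, each panel titled by the nearest gene. The 5mC level is lower in neurons than in PP in all 12 panels, 5hmC stays near 4.8 at Slc25a13, is highest in DP at Sec61b, Ndufs4 and Neurod2, and is near 0 in neurons at Adamts20.

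Of these genes, Neurod2 and Emx1 encode transcription factors that act in the developing cortex. Neurod2, a basic helix-loop-helix factor of neuronal differentiation, had its pair 3654 bp upstream of the start, at chr11:98333211-98333393 (mm10), and no other peak of either mark. The paper lists bisulfite primers for a region within this 5mC peak. Its text does not state whether this region was among its sequenced loci with 5mC loss and 5hmC gain, and no bisulfite values were used here. 5mC was 5.91, 4.92 and 2.50 in PP, DP and neurons. 5hmC was 4.57, 5.08 and 3.28, highest in DP. Neurod2 expression was 1455, 14645 and 44141 in the same order, so it was higher at each step while 5mC was lower at each step. Emx1, a homeobox factor of the dorsal telencephalon, had its pair 19749 bp downstream of the start. There 5mC was 4.33 in PP and already 1.57 in DP, with 1.69 in neurons. 5hmC was 6.45, 6.23 and 4.64, so the 5mC difference stood between PP and DP and the 5hmC difference between DP and neurons. Emx1 expression peaked in DP, with 4886, 10161 and 4664. A second overlapping pair of Emx1, 32674 bp downstream, was not among the 270. It had 5mC of 5.77, 4.43 and 1.28 and 5hmC of 4.28, 5.98 and 4.53. Both pairs of Emx1 thus had lower 5mC in neurons, and their 5hmC differed in order.

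Upstream of Rasgef1b, a Ras exchange factor, 5mC was 5.93, 4.14 and 1.90 and 5hmC was 6.65, 5.47 and 4.47 in PP, DP and neurons. Inside Klhl29, of the kelch-like family, 5mC was 6.08, 5.11 and 2.19 and 5hmC was 6.31, 6.01 and 4.72. Both genes were expressed more in neurons, Rasgef1b at 12703 against 1909 in PP and Klhl29 at 12279 against 1158. Both also had overlapping pairs of the other kind. Rasgef1b had 3 pairs with lower 5mC and higher 5hmC, with 5hmC differences of 0.69 to 2.04, and Klhl29 had 2, with 1.89 and 2.56. Trim2 had 1 such pair, also inside the gene, with a 5hmC difference of 1.46, Adamts20 had 3, with 0.32 to 4.62, and Zfp238 had 1, with 0.30. Of the 263 genes, 67 (25.5%) had at least 1 such pair beside the pair described here, and 139 (52.9%) had any other overlapping pair. Over all 4428 genes with an overlapping pair, 1466 had at least 1 with lower 5mC and higher 5hmC. Among 284 further overlapping pairs of the 263 genes, 114 (40.1%) had lower 5mC and higher 5hmC, against 27.7% of all overlapping pairs. The 284 leave out the pairs described here, whereas all overlapping pairs include them. These shares thus come from unlike sets, and their difference was not tested.

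Of 13 lists of genes, 9 held at least 1 of the 270 pairs and 22 genes were counted in all. The counts below are of pairs with lower 5mC, of which 12.7% were selected over all genes, and 21.1% of all genes were at least 2-fold higher and 22.9% at least 2-fold lower in neurons. The lists hold too few pairs to read a share from. Among factors of projection neuron identity 1 pair of 11 with lower 5mC was selected. It lay inside Zfp238, now named Zbtb18, a repressor needed for cortical neurogenesis, with 5mC of 4.08, 3.15 and 0.52 and 5hmC of 5.87, 6.14 and 5.66. The list of bHLH factors and partners had 2 of 12, Neurod2 and Tcf4. Progenitor markers and the Notch pathway had 2 of 12, Emx1 and Insm1, a zinc finger factor of basal progenitors, whose expression was 5905, 14633 and 8638. Synaptic vesicle and neuronal cytoskeleton genes had 3 of 14, Syt1, Gap43 and Gm4392, a symbol that RefSeq lists under Ank2. The growth cone gene Gap43 had 5mC of 3.98, 3.91 and 0.47 and 5hmC of 5.38, 5.39 and 4.82. All 3 genes were expressed at least 2-fold higher in neurons than in PP. The values deposited under the symbol Gm4392 were low, at 9.8, 5.7 and 36.3 in PP, DP and neurons. Whether they describe Ank2 was not tested. Of ion channels and receptors 4 of 40 pairs were selected, at the serotonin receptor Htr6, the potassium channel Kcnk7, the dopamine receptor Drd1a and the adrenergic receptor Adra2a, and of these 4 only Drd1a was 2-fold higher.

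Genes of Wnt, FGF, BMP and TGF-beta signalling had 5 of 27 pairs. Of these, Wnt7b, a Wnt ligand, was expressed higher in neurons, at 25350 against 1302 in PP. Lower by at least 2-fold were Wnt3a, another ligand, the receptor Bmpr1b and the signal transducer Smad3, the last at 519 in neurons against 4234 in PP. Wnt3a expression was highest in DP and low in PP and neurons, with 19.1, 269 and 2.8 in PP, DP and neurons. Smad1 was within 2-fold. Cell cycle and replication genes had 3 of 8, the proliferation marker Mki67, cyclin E1 (Ccne1) and cyclin D1 (Ccnd1), and all 3 were at least 2-fold lower in neurons. Mki67 was 46482, 52107 and 1585 in PP, DP and neurons, with 5mC of 4.81, 4.05 and 3.62 and 5hmC of 4.40, 4.39 and 4.34. Adhesion genes had 1 of 14, the cadherin Cdh7, and the oligodendrocyte and astroglial markers 1 of 2, Pdgfra. Axon guidance genes had 0 of 15, methylation enzymes 0 of 2, interneuron markers 0 of 1, and endothelial, microglial, mesenchymal and red cell markers 0 of 3.

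**Figure D5:**
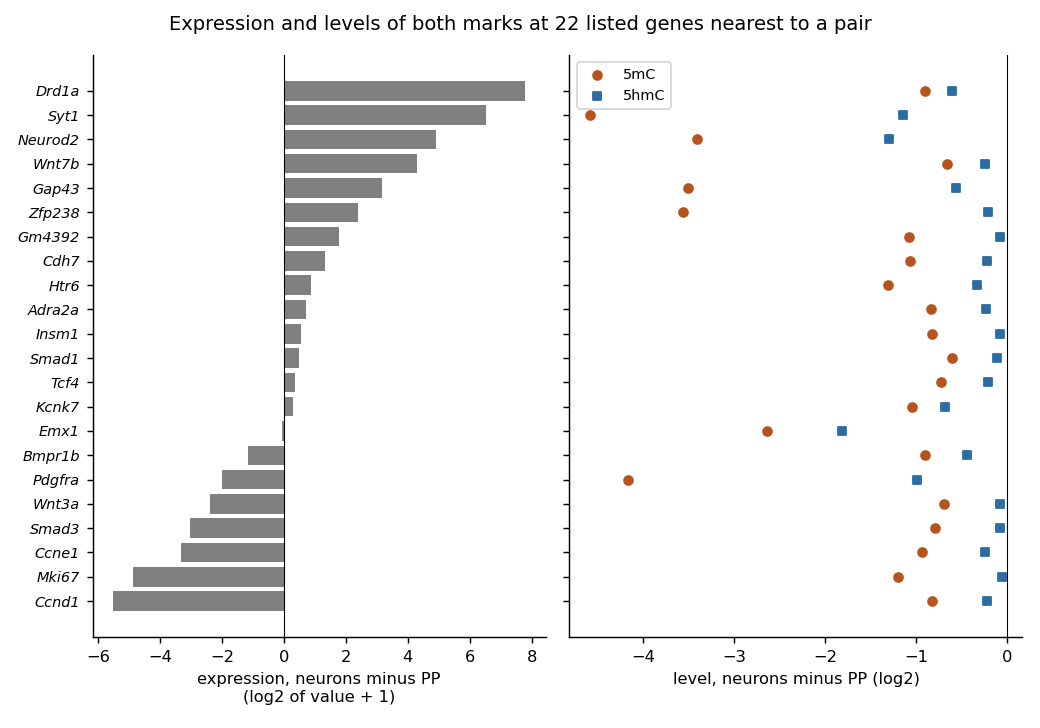
Left, bars give the difference in expression between neurons and PP (log2 of value + 1) of the 22 listed genes nearest to one of the 270 pairs. Right, points give the difference between neurons and PP in 5mC (circles) and 5hmC (squares) at the pair, which lie below 0 through the selection. Expression differences reach from -5.52 at Ccnd1 to 7.78 at Drd1a.

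Expression of the nearest genes, taken from the authors' earlier RNA sequencing and attached to the peaks, showed both directions. The median difference between neurons and PP, on the log2(value + 1) scale, was 0.03 over the 263 genes, against -0.01 over all 16293 genes of both tables. At least 2-fold higher in neurons were 66 genes (25.1%), against 21.1% of all genes, and 61 (23.2%) were at least 2-fold lower, against 22.9%. These shares were near the background. Near pairs with lower 5mC and higher 5hmC, 32.5% of genes were 2-fold higher and 20.5% lower, with a median of 0.21. Among genes near the 270 pairs with a mean expression of at least 100 over the 3 cell types, the largest differences were 8.09 at Galnt9, a glycosyltransferase, 7.78 at Drd1a, 6.96 at the splicing regulator Rbfox1, 6.73 at Nmnat2, an enzyme of NAD synthesis in axons, and 6.54 at Syt1. Galnt9, at 1.1 in PP and 572 in neurons, and Drd1a, at 1.5 and 550, reached that mean only through neurons, and their differences depend on the pseudocount. The lowest differences were -5.52 at Ccnd1, -5.40 at the RNA-binding protein gene Samd4, -4.97 at the mitotic kinase gene Pbk, -4.87 at Mki67 and -4.70 at Phactr2, a regulator of actin and phosphatase 1. Apart from Syt1, the 5mC differences at these 10 genes lay between -1.19 and -0.60.

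The 270 5mC peaks lay far from gene starts, like the other overlapping pairs. Inside the nearest gene were 105 (38.9%, exact Clopper-Pearson 95% interval 33.0% to 45.0%), against 41.1% of all pairs and 43.2% of the pairs with higher 5hmC. Another 105 lay upstream, 58 downstream and 2 across the start. The median distance to the start was 25149 bp, against 23768 bp for all pairs and 26941 bp with higher 5hmC. Within 2000 bp lay 14 (5.19%), against 6.27% of all pairs, and 82 (30.4%) lay more than 50000 bp away, against 28.9%. The peaks were small, with median widths of 153 bp for 5mC and 169 bp for 5hmC and a median overlap of 117 bp. They were spread over the genome, with the lowest share of the pairs with lower 5mC on chromosome 18 (6 of 88) and the highest among autosomes on chromosome 10 (24 of 133), and with 4 of 9 on the X chromosome.

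A 1.5-fold lower 5mC level was not found at most other peaks around the 270 pairs. Within 5000 bp of 122 of them lay 166 other 5mC peaks, with a median difference of -0.29, and 44 of these (26.5%) were 1.5-fold lower, against 16.3% of all 5mC peaks. Within the same distance lay 172 other 5hmC peaks, of which 18 (10.5%) were 1.5-fold lower, against 10.8% of all 5hmC peaks. Over all other peaks of the same genes, 22.5% of 1810 5mC peaks were at least 1.5-fold lower and 27.9% of 1784 5hmC peaks were at least 1.5-fold higher, against 20.2% of all 5hmC peaks. At Slc25a13, for example, none of 9 other 5mC peaks was 1.5-fold lower, with a range of -0.53 to 0.57. At Klhl29, in contrast, 6 of 9 other 5mC peaks were 1.5-fold lower, at Rasgef1b 8 of 17 and at Trim2 3 of 5, and the single other 5mC peaks of Emx1 and Xkr7 were both lower. Genes nearest to 2 of the 270 pairs numbered 7, and none was nearest to 3.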

How the data were processed

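5mC (MeDIP) and 5hmC (hMeDIP) were mapped in PP, DP and neurons, 6 immunoprecipitated and 6 input samples per the labels. The submitters' processing notes name bcl2fastq 1.8.4, BWA 0.7.8-r455, SICER 1.1, DiffBind, HOMER 4.7, deepTools 2.2 and mm10. The deposited tables list peaks with a log2 mean level per cell type, which the authors made with DiffBind from replicates that the labels do not separate. The deposited distance of each peak to the nearest start is in bp. Expression of the nearest gene is a score on a scale that the deposited tables do not name; the authors took it from earlier RNA sequencing. Fold changes and p-values of the authors' own comparisons were not used, and 0 other columns of per-sample values were left out.

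Peaks were paired at an overlap of 1 bp or more, and differences of levels were taken as neurons minus PP, at thresholds of -0.585 for 5mC and 0 for 5hmC. Without replicate values in the tables no test was made here. The scripts were tested on simulated data. Expression used a pseudocount of 1, each gene once. Symbols of 230 of the 263 genes were in RefSeq, 18 more by an older symbol, and 15 were unmatched. Named were the 10 largest differences in each mark, listed genes, genes nearest to 3 or more pairs, pairs at the thresholds, and the 5 largest differences in expression each way at a mean of at least 100; other overlapping pairs of Emx1, Rasgef1b, Klhl29, Trim2, Adamts20 and Zfp238 and the 2 promoter windows were chosen after their values were seen. Members and lists were chosen with earlier results of these data known. Promoter sequences are from RefSeq (GRCm38.p6). Python 3.11.15, numpy 2.4.6, pandas 2.3.3, scipy 1.17.1 and matplotlib 3.10.9 were used. The CpG content and motifs of the peaks themselves were not analysed here.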

Additional observations from a re-analysis of the deposited data

How the results depend on the processing

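Of 90 values under other settings, 67 moved by less than the limits set for an unchanged value, 22 moved by more and 1 changed sign. With an overlap of at least 50% of both peaks the median expression difference was -0.068 in place of 0.034. After taking the median difference of all peaks of a mark away, 144 pairs were left, with median differences of -0.95 in 5mC between neurons and PP, -0.39 in 5mC between DP and PP and 0.32 in expression. With 5mC at least 2-fold lower there were 100 pairs, with -1.71, -0.56 and 0.35 in the same order and -0.014 in 5hmC between DP and PP. With 5hmC at least 1.5-fold lower there were 51 pairs, with -1.51, -0.70 and 0.27, 5hmC differences of -0.79 between neurons and PP and -0.21 between DP and PP, and a median distance of 31792 bp. With both peaks at or above the median level of their table there were 29 pairs, with median differences of -0.76 in 5mC and -0.22 in 5hmC between neurons and PP and -0.014 in 5hmC between DP and PP, 48.3% inside the nearest gene and a median distance of 37106 bp. The construction of these settings, which keep fewer of the 270 pairs, gives the lower counts; the cause of other shifts was not tested. Chosen after seeing the data were counting start and end of a peak both (270 pairs), a neuron level of at least 1 in both marks (256) and 1 pair per nearest gene (263). The settings on CpG content and motifs of the peaks were not run. No paired analysis was possible because the labels give no replicate numbers and the tables hold 1 mean per cell type and mark. The reads behind each level are not given, so low levels cannot be given an error.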
